A study of Mus musculus with 3 samples.

Results

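Activated Foxp3-negative CD4 T cells are helper T cells that carry activation genes but no Foxp3, the factor that defines regulatory T cells. They were chosen by measured UMIs of set genes (unique molecular identifiers, each standing for 1 captured RNA molecule) in 3 mouse lung single-cell libraries. A barcode needed at least 1000 UMIs, at least 500 genes and at most 10% mitochondrial UMIs. It needed at least 2 UMIs of the T cell receptor genes Cd3d, Cd3e and Cd3g, at least 1 of Cd4, none of Cd8a, Cd8b1 or Foxp3, and at most 1 of the B cell, epithelial, endothelial and macrophage genes Cd79a, Epcam, Cdh5 and Marco. It also needed at least 2 UMIs summed over Ikzf2, Ctla4, Icos, Cxcr6 and Maf, which are called the rule genes here. The rule found 197 activated CD4 T cells among 12458 kept cells, of which 62 came from the PPARg-/- tumour library, 90 from the WT tumour library and 45 from the WT healthy library. The other 672 Foxp3-negative CD4 T cells that passed the same gates had a rule-gene sum of 0 or 1 and serve as the neighbouring population.

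CD4 T cells leave the naive state when their T cell receptor meets antigen, and then lose homing genes of the lymph node and gain receptors for costimulation and for entry into tissue. Helper subsets are named after a transcription factor and the cytokines it drives: for example Tbx21 with interferon gamma in Th1 cells, and Gata3 with interleukins 4, 5 and 13 in Th2 cells. In the lung, antigen-experienced CD4 T cells are found in the airway walls and the tissue, and Icos, Ctla4, Cxcr6 and Maf are among the genes they carry.

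All mice carried Ccsp-rtTA and TetO-EGFRL858R, a pair of transgenes with which doxycycline switches on a mutant human EGFR in the club cell lineage of the lung epithelium. The PPARg-/- tumour mice also carried Pparγfl/fl and Csf1rCre, a Cre driven from a macrophage gene that can also act in other blood cells. The WT tumour mice carried Pparγfl/fl without Cre, and the WT healthy mice carried the EGFR transgenes alone. Mice were 16 to 20 weeks old and ate chow with 625 ppm doxycycline, which the labels also give for the healthy mice, and 3 mice were pooled into each library. With 1 library a group there is no replicate, so no test between groups was possible and every interval below covers counting error alone. Lung cells were sorted into 4 populations (alveolar macrophages, other macrophages, T cells and epithelial cells) and mixed, so shares are given within CD4 T cells only.

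The activated CD4 T cells held 269826, 331754 and 224517 UMIs in the PPARg-/- tumour, WT tumour and WT healthy libraries, with medians of 3135, 2909 and 3935 UMIs a cell. The other CD4 T cells had medians of 2627.5, 3089 and 3717 UMIs. No activated CD4 T cell barcode was kept in another library, and 4 to 6 barcodes of any kept cell type were shared between library pairs. A doublet caller marked 2 of 62, 4 of 90 and 3 of 45 of these cells, which were kept. The labels state both sexes, yet Xist reached 1082 CPM (UMIs of the gene per 1000000 UMIs of the summed cells) in the activated CD4 T cells of the WT healthy library and 0 in both tumour libraries. Y-linked genes were at 145 CPM in the PPARg-/- tumour cells, 205 CPM in the WT tumour cells and 0 in the WT healthy cells. Tumour and sex therefore cannot be told apart for any gene in the second comparison, or wherever either tumour library is set beside the healthy one.

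Among these cells, 12 stood apart by macrophage RNA. They carried 20 or more UMIs of a 14-gene macrophage and monocyte list, a limit set after seeing the values. There were 4 such cells in the PPARg-/- tumour library with 1346 to 2808 macrophage UMIs, 5 in the WT tumour library with 42 to 1101, and 3 in the WT healthy library with 124 to 308. The remaining cells had at most 14, 11 and 7 macrophage UMIs, so the 12 lie clear of them. The 12 held 31.6% of all UMIs of the activated CD4 T cells in the PPARg-/- tumour library, 16.8% in the WT tumour library and 13.5% in the WT healthy library. Lyz2, the lysozyme gene of macrophages, had 6362, 1190 and 411 UMIs in the 3 libraries, of which 6189, 1018 and 386 lay in the 12. The macrophage list stood at 34960, 5733 and 3274 CPM over all activated CD4 T cells, and at 1712, 1181 and 510 CPM without the 12. The call counts of both comparisons below and many of their values are therefore given with and without them. Values without such a mark include the 12, and values of other cell groups always include their own such cells. The remaining cells still held some macrophage RNA, with a Lyz2 UMI in 53 of 58, 72 of 85 and 19 of 42. Cells with 20 or more macrophage UMIs were not particular to the activated cells. They were 7 of 242, 9 of 199 and 4 of 231 other CD4 T cells, and held 8.02%, 11.9% and 5.74% of the UMIs there. Among Foxp3-positive CD4 T cells they were 1 of 8, 1 of 26 and 0 of 3.

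**Figure D1:**
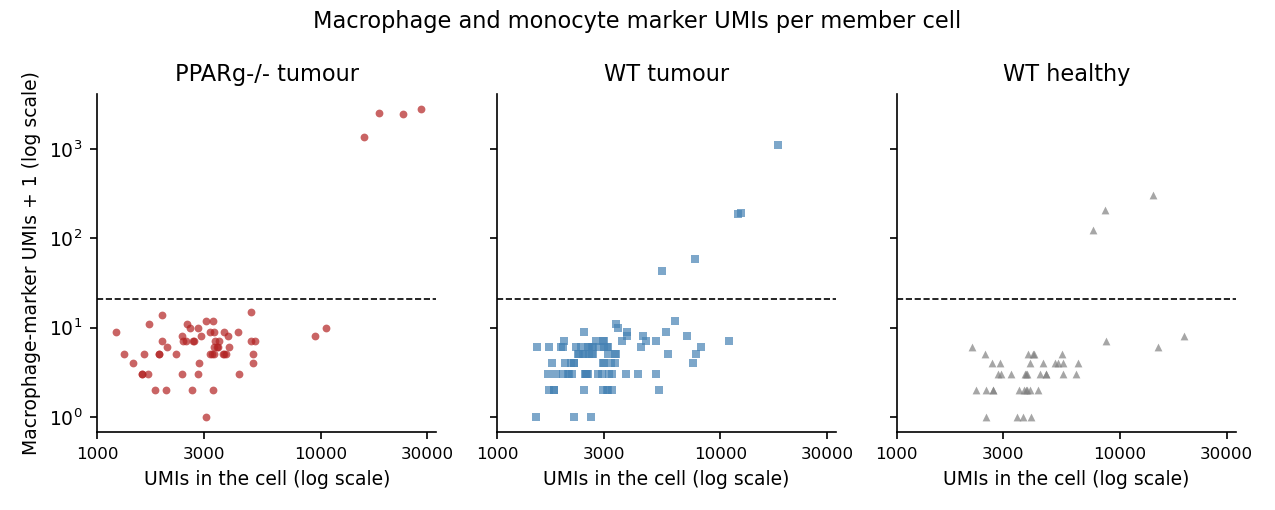
UMIs of 14 macrophage and monocyte marker genes, plus 1, in each activated CD4 T cell (y axis, log scale) against the total UMIs of that cell (x axis, log scale), with a panel for each library. The dashed line marks 20 macrophage UMIs, and 4, 5 and 3 cells lie on or above it in the PPARg-/- tumour, WT tumour and WT healthy libraries.

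Pparg, the gene targeted in macrophages, had few UMIs outside the 12 cells. It had 35 UMIs in PPARg-/- tumour cells, 9 in WT tumour cells and 5 in WT healthy cells. Of these, 34, 5 and 0 lay in the 12 macrophage-bearing cells, and the 5 of the WT healthy library lay in 1 other cell. These 3′ tags need not lie in the deleted part of the gene and so do not check the deletion. Csf1r, whose regulatory sequence drives the Cre, had 17, 36 and 10 UMIs, of which 15, 36 and 9 lay in the 12.

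The 5 rule genes did not mark the same cells in the 3 libraries. Their values chose the cells and are given as a description. Icos, an inducible costimulatory receptor of the CD28 family, was found in 31 of 62 activated CD4 T cells of the PPARg-/- tumour library, 49 of 90 of the WT tumour library and 41 of 45 of the WT healthy library, or 50%, 54.4% and 91.1%. Cxcr6, the receptor for CXCL16 that is found on T cells in lung tissue, went the other way, with 18, 31 and 4 cells or 29.0%, 34.4% and 8.89%. Both tumour libraries were thus low in Icos and high in Cxcr6 beside the healthy one. Maf, a transcription factor of differentiated helper cells, was found in 43, 56 and 19 cells. Ctla4, an inhibitory receptor that competes with CD28, was found in 25, 23 and 11 cells. Ikzf2, the gene of the transcription factor Helios, was found in 20, 37 and 10 cells. Icos, Ctla4 and Ikzf2 lie on chromosome 1 of GRCm38, and Icos (60977927 to 61000320, plus strand) and Ctla4 (60887000 to 60915832, plus strand) are neighbours there.

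Gata3 belongs to the markers of the label but not to the rule, so the rule does not fix its share. The label markers were chosen with earlier results of these data known, so this share is not an independent check of the label. Gata3 had a UMI in 14 of 62 activated CD4 T cells of the PPARg-/- tumour library, 33 of 90 of the WT tumour library and 17 of 45 of the WT healthy library, or 22.6%, 36.7% and 37.8%. In the other CD4 T cells the shares were 11.6%, 15.1% and 21.2% at similar depths. Gata3, Icos, Cxcr6 and Ikzf2 had no UMI in any of 258 B cells of the same libraries, which allows a share of up to 1.16%, at median depths of 1831, 1932 and 2754.5 UMIs. Ctla4 had one in 10 and Maf in 6 of those B cells. The Gata3 share of activated cells thus lies above that of a cell type that should lack the gene, though the B cells are shallower. The 5 rule genes were present in activated cells by selection. Macrophages are different: Ikzf2 had a UMI in 10.6%, 15.2% and 11.7% of cells with macrophage markers and no Cd3 UMI, and Maf in 24.0%, 11.4% and 13.0%, at median depths of 10488, 11170 and 11196 UMIs.

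**Figure D2:**
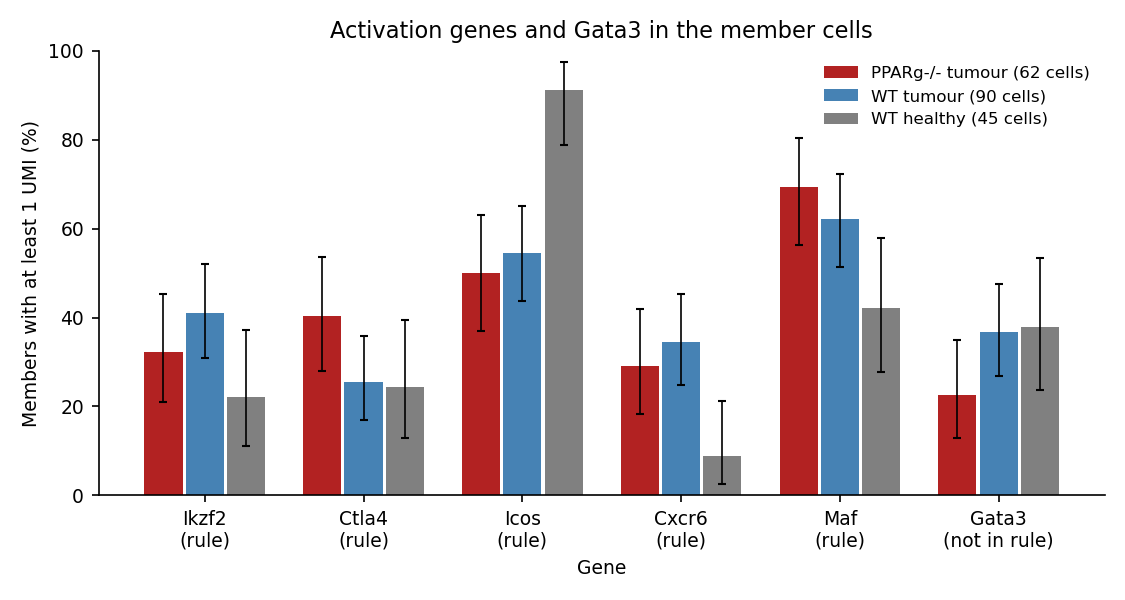
Share of activated CD4 T cells with at least 1 UMI of each rule gene and of Gata3 (y axis, percent), by library, with exact 95% Clopper-Pearson intervals for counting error. Icos was found in 50% of the PPARg-/- tumour cells, 54.4% of the WT tumour cells and 91.1% of the WT healthy cells, while Cxcr6 was found in 8.89% of the WT healthy cells.

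The rule admits some cells whose activated state is in doubt. A single rule gene was detected in 15 of 62, 18 of 90 and 21 of 45 activated CD4 T cells, and in 5, 5 and 17 of these that gene was Icos. The 27 cells with Icos alone carried the naive and central memory list (12 genes such as Ccr7 and Lef1) at 6878 CPM, against 5685 CPM in the other CD4 T cells and 3037 CPM in all activated CD4 T cells. By this list the label is in doubt for these cells. They made up 8.06% of the PPARg-/- tumour cells, 5.56% of the WT tumour cells and 37.8% of the WT healthy cells. Of the 27, 17 came from the WT healthy library. There the list was highest over all activated cells, at 4739 CPM against 2383 (PPARg-/- tumour) and 2417 CPM (WT tumour). Library and kind of cell therefore cannot be told apart in the 6878 CPM. At the threshold, 20, 18 and 16 cells lay just inside with a rule-gene sum of 2, while 37, 29 and 36 cells lay just outside with a sum of 1. A sum of 5 or more was reached by 28, 35 and 18 cells, and the highest sums were 23, 37 and 20.

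The share of activated cells among Foxp3-negative CD4 T cells was highest in the WT tumour library. They were 62 of 304 in the PPARg-/- tumour library, 90 of 289 in the WT tumour library and 45 of 276 in the WT healthy library, or 20.4% (16.0 to 25.4%), 31.1% (25.8 to 36.8%) and 16.3% (12.1 to 21.2%) with exact Clopper-Pearson intervals. With every cell thinned to 1000 UMIs the shares were 9.73% (6.76 to 13.8%), 13.5% (9.78 to 18.0%) and 4.86% (2.53 to 7.92%), and the intervals of both tumour libraries overlapped. These intervals count cells of 1 library each and cannot show a difference between groups. Foxp3-positive cells, which the rule leaves out, were 8 of 312, 26 of 315 and 3 of 279 CD4 T cells, or 2.56%, 8.25% and 1.08%, so both populations were largest in the WT tumour library. Because the rule counts UMIs of genes that themselves differ between libraries, these shares describe the rule as much as the cells.

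Beside the other CD4 T cells, the activated cells carried genes of antigen-experienced T cells in all 3 libraries. Itgb1, the beta-1 integrin chain, stood at 411, 690 and 624 CPM in the activated cells of the PPARg-/- tumour, WT tumour and WT healthy libraries, against 117, 96.4 and 72.2 CPM in the other CD4 T cells. Cd44, the hyaluronan receptor that marks memory T cells, stood at 241, 283 and 205 CPM against 40.9, 74.2 and 92.2 CPM. Rora, a nuclear receptor of effector and innate-like lymphocytes, stood at 148, 277 and 249 CPM against 26.3, 32.6 and 16.7 CPM. The activated values lie above every value of the other cells for all 3 genes. Rgs1, a regulator of chemokine receptor signalling in tissue lymphocytes, stood at 285, 304 and 321 CPM against 40.9, 57.8 and 44.4 CPM. Gata3 stood at 70.4, 154 and 187 CPM against 46.7, 56.4 and 70.0 CPM, with the narrowest gap in the PPARg-/- tumour library. Without the 12 macrophage-bearing cells, Itgb1, Cd44, Rora, Rgs1 and Gata3 were still higher in the activated cells of each library, although Cd44 in the WT healthy cells came down to 129 CPM. The other CD4 T cells kept their own macrophage-bearing cells in this reading.

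Genes of naive and recirculating cells were lower in the activated cells of the tumour libraries, and less so in the healthy one. Lef1, a transcription factor of naive T cells, stood at 167, 136 and 370 CPM against 537, 578 and 700 CPM in the other cells. Ccr7, the receptor that guides T cells into lymph nodes, stood at 100, 87.4 and 303 CPM against 293, 350 and 383 CPM. In the WT healthy library, Ccr7 of the activated cells thus came closer to the other cells than in either tumour library. Il7r, the interleukin 7 receptor chain of resting T cells, stood at 389, 603 and 815 CPM against 982, 943 and 727 CPM, so it was lower in the activated cells of both tumour libraries and not of the healthy one. The naive and central memory list of the activated cells stood at 2383, 2417 and 4739 CPM, and at 3127, 2634 and 4879 CPM without the 12.

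**Figure D3:**
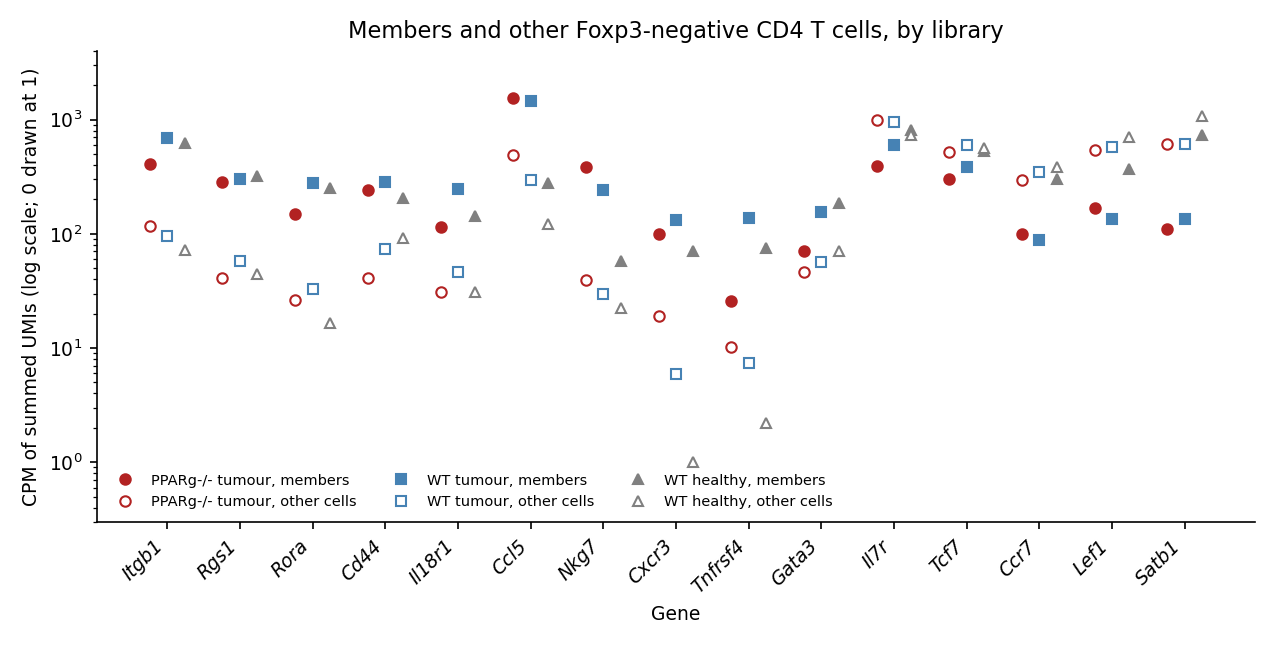
CPM of summed UMIs (y axis, log scale, 0 drawn at 1) of 15 genes in the activated CD4 T cells (filled symbols) and the other Foxp3-negative CD4 T cells (open symbols), with a colour and shape for each library. Itgb1, Rgs1, Rora and Cd44 of the activated cells lie above the other cells in all 3 libraries, while Lef1 and Satb1 lie below them.

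Helper subsets could be named for few single cells. Tbx21, the Th1 factor, was found in 5, 9 and 2 activated cells of the PPARg-/- tumour, WT tumour and WT healthy libraries. Ifng, the Th1 cytokine, had 12 UMIs in 8 PPARg-/- tumour cells, 12 UMIs in 8 WT tumour cells and 2 UMIs in 1 WT healthy cell. Of these cells 7, 4 and 1 also held Ccl5, a chemokine of effector T cells. Ifng was thus found in a small number of cells, beside Ccl5 in 7 of 8 PPARg-/- tumour cells and 4 of 8 WT tumour cells.

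Type 2 and type 17 cytokines lay in still fewer cells. Il4 was found in 5 cells of the 3 libraries and Il13 in 3 WT tumour cells with 6 UMIs, of which 2 also held Gata3. Il5 and Areg had no UMI. Il17f had 23 UMIs in 2 WT tumour cells (17 and 6), 1 UMI in 1 WT healthy cell and none in the PPARg-/- tumour cells, and 1 of the 2 WT tumour cells also held Il17a. Il10, an inhibitory cytokine, had 6 UMIs in 2 PPARg-/- tumour cells and none elsewhere, and Il21, the cytokine of follicular helper cells, had 2 UMIs in the PPARg-/- tumour library only. With 45 to 90 cells a library, a count of 0 for such genes was not distinguishable from a low share.

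Chemokine and cytotoxic genes set apart a part of the activated cells. Ccl5 had a UMI in 21 of 62, 28 of 90 and 6 of 45 cells, and Nkg7, a protein of cytotoxic granules, in 21, 27 and 4. Both were found more often in the tumour libraries. Cxcr6 overlapped with Ccl5 in 9 of its 18 PPARg-/- tumour cells, 18 of its 31 WT tumour cells and all 4 of its WT healthy cells. Ikzf2 and Cxcr6 were found together in 5, 3 and 2 cells.

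Cells with an Ikzf2 UMI carried more regulatory T cell genes than those without one, although Foxp3 was at 0 in both by the rule. Over the 3 libraries, Il2ra, the high-affinity interleukin 2 receptor chain, stood at 149 CPM in the 67 cells with Ikzf2 and 16.9 CPM in the 130 without. Tnfrsf4, the costimulatory receptor OX40, stood at 205 and 37.2 CPM. The regulatory list of 15 genes, which includes neither Ikzf2 nor Ctla4, stood at 1114 and 422 CPM. The macrophage list stood at 2505 CPM in the cells with Ikzf2 and 19403 CPM in those without. Ccl5 went the other way, with 832 CPM in cells with Ikzf2 and 1293 CPM in those without. The 37 Foxp3-positive cells carried Il2ra at 309 CPM and Tnfrsf4 at 473 CPM, above both sets, and 18 of them had a single Foxp3 UMI. Foxp3-positive cells whose Foxp3 RNA was not captured would pass the rule, and their part in these values was not tested.

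The first comparison asks how activated CD4 T cells differ between tumours whose macrophages lack PPARg and tumours whose macrophages keep it. Activated cells of the PPARg-/- tumour library had lower levels of the interleukin 2 receptor chain Il2ra, the costimulatory receptor Tnfrsf4, the semaphorin receptor Nrp1, the Th2 factor Gata3 and the chemokine receptor Cxcr4, with or without the 12 macrophage-bearing cells. They had higher levels of Cd27, a costimulatory receptor of naive and early memory cells, and of the cell-cycle genes Mki67 and Top2a, the second pair resting on few cells. A gene was called where the ratio of CPM was 1.5-fold or more with a 95% counting interval that excluded 1, among genes with at least 20 UMIs over both libraries. Of 4336 genes, 236 (5.44%) were called higher and 288 (6.64%) lower in the PPARg-/- tumour cells, 12.1% in all. Without the 12 cells, 111 (3.31%) were called higher and 151 (4.5%) lower of 3352, 7.82% in all, and 157 calls were shared with the full set. For 163 of the calls over all cells and 26 of those without the 12, 1 cell held over 20% of the gene's UMIs. With at most 5% mitochondrial UMIs a cell, 101 were called higher and 146 lower. The median log2 ratio over all genes was -0.10, and -0.03 without the 12.

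In the regulatory list, all called genes were lower in the PPARg-/- tumour cells. Il2ra had 2 UMIs in 2 of 62 PPARg-/- tumour cells and 29 UMIs in 14 of 90 WT tumour cells, a log2 ratio of -3.56 (interval -6.67 to -1.58), and -3.28 without the 12. The other CD4 T cells held 4 and 2 Il2ra UMIs in these libraries. Tnfrsf4 had 7 UMIs in 5 cells against 46 UMIs in 21 cells, a log2 ratio of -2.42 (-3.81 to -1.26), and -2.29 without the 12. Nrp1, which also marks regulatory T cells from the thymus, had 11 UMIs in 10 cells against 42 in 29, a log2 ratio of -1.63, and -2.00 without the 12. In the other CD4 T cells Nrp1 lay the other way, at 30.6 against 1.48 CPM, and macrophages carried it in 49.9% and 46.9% of cells. These were the 3 called members of 6 tested in the list, against 6.64% of all genes called lower. The list median log2 ratio was -1.15 and the summed log2 ratio -0.68, and -0.89 without the 12.

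Foxp3 detection moved with these genes. Foxp3-positive cells were 2.56% of CD4 T cells in the PPARg-/- tumour library and 8.25% in the WT tumour library. Among the activated cells, 3 of 62 PPARg-/- tumour cells and 17 of 90 WT tumour cells held Ikzf2 together with Il2ra or Tnfrsf4. In cells without Ikzf2 the log2 ratios of Il2ra, Tnfrsf4 and Nrp1 were -3.19, -2.02 and -0.94, none of them called. Il2ra had 1 against 9 UMIs and Tnfrsf4 3 against 12 UMIs there, too few to be tested. The part of regulatory cells with uncaptured Foxp3 in this difference was not tested.

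Gata3 was lower in PPARg-/- tumour cells, with 19 UMIs in 14 cells against 51 UMIs in 33 cells. The log2 ratio was -1.13 (-1.97 to -0.34), -1.004 without the 12 and -1.40 in cells without Ikzf2. The median depth was higher in the PPARg-/- tumour cells, 3135 against 2909 UMIs. The rule genes chose the cells and are given as a description. Icos stood at 208 against 253 CPM, Cxcr6 at 163 against 166 CPM and Maf at 552 against 485 CPM. Ikzf2 stood at 208 against 371 CPM, a log2 ratio of -0.84, and -0.48 without the 12. Ctla4 stood at 193 against 127 CPM, a log2 ratio of 0.61, and 0.97 without the 12.

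The Th17 list was lower too, on few genes. All 3 tested genes of its 11 were called lower, against 6.64% of all genes. The summed log2 ratio was -1.37 (-1.84 to -0.91), and -1.11 without the 12. Rora had 40 UMIs in 17 PPARg-/- tumour cells against 92 UMIs in 42 WT tumour cells, a log2 ratio of -0.90, and -0.49, not called, without the 12. Il17f had 0 UMIs against 23 UMIs that lay in 2 cells, and Tmem176a, a membrane protein also known from myeloid cells, had 3 UMIs against 19. Without the 12, Il17f was the called gene of 2 tested, and Tmem176a had under 20 UMIs.

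Th1 and cytotoxic genes depended on the 12 cells. Ccl5 had 415 UMIs in 21 PPARg-/- tumour cells and 483 UMIs in 28 WT tumour cells, a log2 ratio of 0.08. However, 180 of the WT tumour UMIs lay in the macrophage-bearing cells, and without them the log2 ratio was 1.03, a call. Nkg7 had 104 UMIs in 21 cells against 80 in 27, a log2 ratio of 0.68 that was 1.33 without the 12 and 0.18, not called, without cells that held 2 or more UMIs of Mki67 and Top2a. Gzmk, a granzyme of memory T cells, had 17 UMIs in 10 cells against 3 UMIs in 2 cells, a log2 ratio of 2.80, with 17 against 2 UMIs left without the 12. Gzma, another granzyme, had 0 UMIs against 83, of which 66 lay in 1 macrophage-bearing WT tumour cell. Il18r1, a chain of the interleukin 18 receptor, had 31 UMIs in 18 cells against 81 in 40, a log2 ratio of -1.09, and -0.77 without the 12. Cxcr3, the Th1 chemokine receptor, had 27 against 44 UMIs and was not called. Of the Th1 list, 1 was called higher and 2 lower of 7 tested, and of the cytotoxic list 2 higher and 2 lower of 6. Without the 12 these counts were 2 higher and 1 lower of 7, and 2 higher and none lower of 4. Over all genes, 5.44% were called higher and 6.64% lower, and 3.31% and 4.5% without the 12. The log2 ratio of the summed Th1 list was 0.01, and 0.75 (0.59 to 0.91) without the 12. That of the cytotoxic list was -0.02, and 0.93 without the 12. Ccl5 alone held 415 of the 648 Th1 UMIs and of the 584 cytotoxic UMIs in PPARg-/- tumour cells without the 12. Its 3 highest PPARg-/- tumour cells held 82, 64 and 63 UMIs. The list medians without the 12 were 0.20 (Th1) and 0.27 (cytotoxic), and both lists hold Ccl5, Nkg7 and Ccl4.

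Genes of recent receptor signalling were lower over all cells, and most of these calls were lost without the 12. Of 13 tested genes of the list 5 were called lower and none higher, against 6.64% of all genes called lower, with a list median of -0.57. Junb, an AP-1 subunit, had 82 UMIs in 25 PPARg-/- tumour cells against 270 UMIs in 65 WT tumour cells, a log2 ratio of -1.42, and -1.13 without the 12. It was the only one of the 5 still called without the 12. Fos (14 against 42 UMIs), Jun (26 against 54), Dusp5 (6 against 25) and Nr4a1 (17 against 44) had log2 ratios of -1.29, -0.76, -1.76 and -1.07 over all cells. Without the 12 these were -1.07, -0.58, -1.004 and 0.21. Dusp2, a phosphatase of activated lymphocytes, was called higher without the 12, at 1.10 with 20 UMIs in 10 cells against 14 in 10. Cd69, an early activation and tissue retention receptor, had 18 UMIs in 12 cells against 48 in 28, a log2 ratio of -1.12, and -1.10 without the 12. Cxcr4, the receptor for CXCL12, had 4 UMIs in 4 cells against 27 in 16, a log2 ratio of -2.46, and -2.81 without the 12.

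Naive-cell and cell-cycle genes were higher in part. Cd27 had 44 UMIs in 28 PPARg-/- tumour cells against 24 UMIs in 14 WT tumour cells, a log2 ratio of 1.17, and 1.39 without the 12. Dapl1 and Igfbp4, both known from naive T cells, had 50 against 11 UMIs and 29 against 6 UMIs, log2 ratios of 2.48 and 2.57. They lay in 9 against 3 and 11 against 3 cells, and 36% of the Dapl1 UMIs lay in 1 cell. Lef1, Ccr7 and Satb1 were not called, and of the naive list 3 were called higher and 1 lower of 11 tested, with a list median of 0.15. Over all genes, 5.44% were called higher and 6.64% lower. Without the 12, 2 of 11 were called higher and none lower, with a median of 0.58 and a summed log2 ratio of 0.25 (0.09 to 0.41). Mki67, a marker of cycling cells, had 41 UMIs in 10 cells against 24 in 8, and Top2a, a topoisomerase of dividing cells, had 45 in 11 against 26 in 9. Their log2 ratios were 1.07 and 1.09, and 1.51 and 2.23 without the 12. At least 2 UMIs of the pair were found in 8 of 62 PPARg-/- tumour cells and 4 of 90 WT tumour cells, and 7 and 2 of these held Ikzf2. Without these cycling cells the Mki67 log2 ratio was -0.35. They were picked by their Mki67 and Top2a UMIs, so this fall follows in part from the choice.

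Outside the lists, the genes with the largest ratios were mixed in kind. The 8 highest that passed the limits on cells and on single-cell excess included Acp5, an acid phosphatase of macrophages and osteoclasts, Lamp2, a lysosome membrane protein, and Ugcg, the glucosylceramide synthase. Ugcg had 31 UMIs in 16 PPARg-/- tumour cells against 10 in 8 WT tumour cells, a log2 ratio of 1.93, and 2.17 without the 12. Aopep, an aminopeptidase, stood at 2.35, and 2.17 without the 12. The others were Rnh1, the ribonuclease inhibitor, Txnl1, a thioredoxin-like protein, Snapc5, a subunit of the small nuclear RNA promoter complex, and Sgk1, a kinase induced by serum and glucocorticoids, at 1.44 to 1.71. Without the 12, Rnh1 and Txnl1 were not called, and Lamp2 and Sgk1 had under 20 UMIs. The 8 lowest were Il2ra, Cxcr4 and Tnfrsf4 with Tiam1, an activator of the GTPase Rac, Mapkapk2, a kinase below p38, Rbm28, a nucleolar RNA-binding protein, Ppp4r3a, a phosphatase 4 subunit, and Ddx23, a splicing helicase. Tiam1 had 4 UMIs in 4 cells against 31 in 23, and Ppp4r3a 9 UMIs in 7 cells against 41 in 30, with log2 ratios of -2.66 and -1.89. Of these 8, only Ddx23 was not called without the 12.

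**Figure D4:**
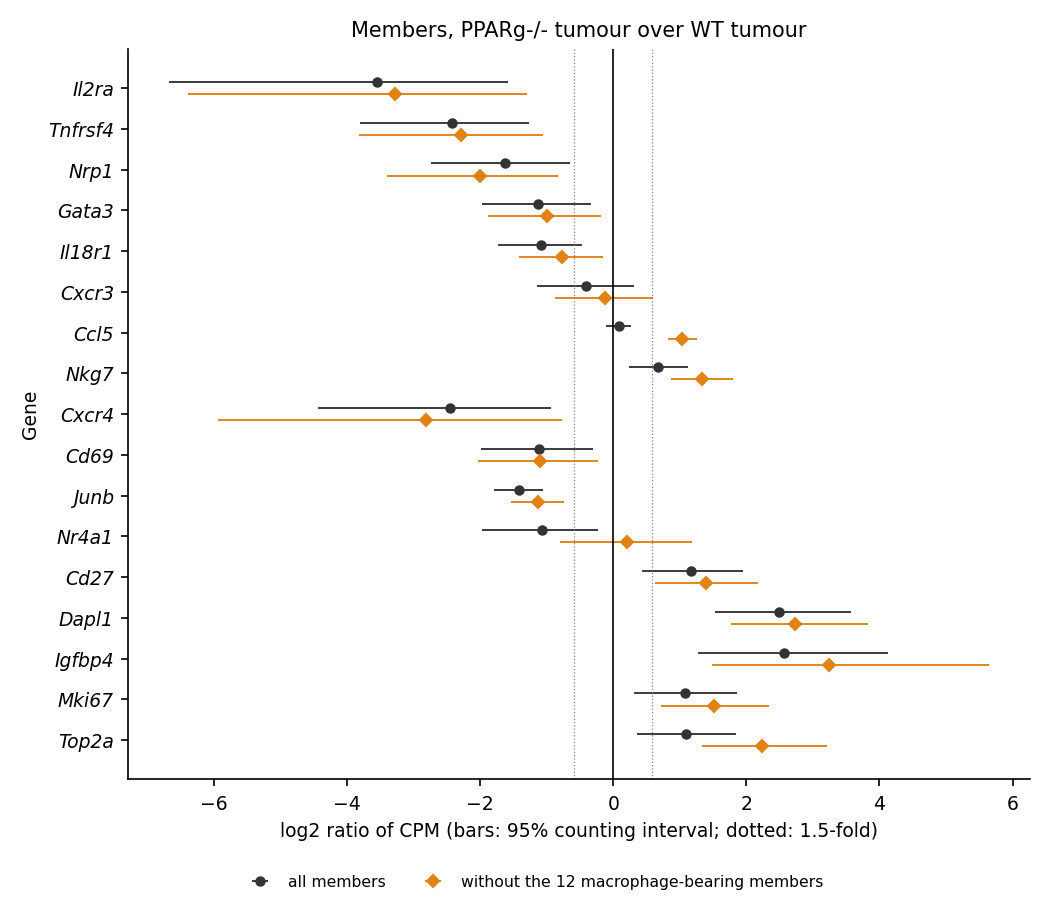
log2 ratio of CPM in activated CD4 T cells, PPARg-/- tumour over WT tumour (x axis), for 17 genes, with 95% counting intervals. Circles are all activated cells, diamonds leave out the 12 macrophage-bearing cells, and dotted lines mark 1.5-fold. Il2ra, Tnfrsf4, Nrp1, Gata3 and Cxcr4 lie left of 0 in both sets, whereas Ccl5 lies at 0.08 in all cells and 1.03 without the 12.

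The second comparison sets activated CD4 T cells of tumour-bearing lungs with intact PPARg against those of healthy lungs. It shares the WT tumour library with the first, and the WT tumour mice also carried the floxed Pparg alleles. Xist and Y-linked genes also parted the WT tumour and WT healthy cells, so tumour and sex cannot be told apart for any gene below. Activated cells of the WT tumour library had higher levels of the chemokine and granule genes Ccl5, Nkg7 and Ctsw and of the receptors Tnfrsf4, Tnfrsf18 and Nrp1. They had lower levels of the naive-cell genes Satb1, Ccr7 and Lef1 and of the early response genes Nr4a3, Dusp1 and Dusp5. Of 4048 genes tested, 305 (7.53%) were called higher and 263 (6.5%) lower in the WT tumour cells, 14% in all. Without the 12, 251 (7.3%) were called higher and 224 (6.51%) lower of 3439, 13.8% in all, and 376 calls were shared with the full set. For 100 of the calls over all cells and 51 of those without the 12, 1 cell held over 20% of the gene's UMIs. The median log2 ratio over all genes was 0.05.

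The Th1 and cytotoxic lists were higher in tumour. Of 6 tested Th1 genes 5 were called higher and none lower, and all 5 tested cytotoxic genes were called higher, against 7.53% of all genes. The list medians were 1.14 and 2.06. Without the 12, 4 genes of each list were still called higher. Ccl5 had 483 UMIs in 28 WT tumour cells and 62 UMIs in 6 WT healthy cells, a log2 ratio of 2.40 (2.01 to 2.80), and 1.78 without the 12. A single WT healthy cell held 50 of the 62 UMIs. Nkg7 had 80 UMIs in 27 cells against 13 in 4, a log2 ratio of 2.06, and Ctsw, a cathepsin of cytotoxic cells, 41 UMIs in 23 cells against 9 in 8, a log2 ratio of 1.62. Cxcr3 had 44 UMIs in 28 cells against 16 in 8, a log2 ratio of 0.90. Il18r1 and Il18rap, the 2 chains of the interleukin 18 receptor, were called higher at 0.78 and 1.38. Without the 12 Il18r1 was still called, at 0.99, and Il18rap was not, at 1.30. Gzma stood at 3.23, but 66 of its 83 WT tumour UMIs lay in 1 macrophage-bearing cell, and at 0.82, not called, without the 12. These 2 lists share Ccl5, Nkg7 and Ccl4.

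The rule genes chose the cells and are given as a description. Cxcr6 had 55 UMIs in 31 WT tumour cells against 11 UMIs in 4 WT healthy cells, and the log2 ratios of Cxcr6, Ikzf2, Maf, Ctla4 and Icos were 1.76, 0.92, 0.77, 0.37 and -0.81. Gata3, outside the rule, was not called, at -0.28. Of the regulatory list 4 of 6 tested genes were called higher and none lower, against 7.53% of all genes called higher, with a median of 0.91. Tnfrsf18, the costimulatory receptor GITR, had 41 UMIs in 21 cells against 9 in 6, a log2 ratio of 1.62, and Nrp1 had 42 in 29 against 11 in 9, a log2 ratio of 1.37. Tnfrsf4 and Capg, an actin-capping protein, were called at 0.87 and 0.75, while Il2ra, with 29 against 14 UMIs, was not. The share of Foxp3-positive cells moved the same way, 8.25% against 1.08% of CD4 T cells, and its part in these values was not tested.

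Naive-cell genes were lower in the WT tumour cells. Of 11 tested genes of the naive list 8 were called lower and none higher, against 6.5% of all genes called lower. The list median was -1.41, and 8 of 11 were also called lower without the 12. Satb1, a chromatin organizer of naive and regulatory T cells, had 45 UMIs in 18 WT tumour cells against 163 UMIs in 31 WT healthy cells, a log2 ratio of -2.42 (-2.93 to -1.94). Ccr7 had 29 UMIs in 14 cells against 68 in 25, a log2 ratio of -1.79. Lef1 stood at -1.45 and Dapl1 at -2.27. The cells with Icos alone moved with this list, being 5 of 90 WT tumour cells and 17 of 45 WT healthy cells. Without them 196 genes were called higher and 218 lower. The other CD4 T cells also differed in Satb1, with 614 CPM in the WT tumour library and 1069 CPM in the WT healthy library.

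Early response, stress and interferon genes were also lower in the WT tumour cells. Of 14 tested receptor-induced genes 9 were called lower and none higher, and of 14 tested stress genes 12 were called lower and none higher. Over all tested genes, 6.5% were called lower. Without the 12, 8 of 12 receptor-induced genes were called lower and 1 higher, which was Nfatc1 at 1.08. Of the stress genes 11 of 14 were called lower and none higher there, against 6.51% of all genes called lower. Both lists hold Fos, Fosb, Jun, Junb, Egr1 and Dusp1, so their counts are not independent. Nr4a3, an orphan nuclear receptor induced by receptor signalling, had 2 UMIs in 2 WT tumour cells against 34 UMIs in 14 WT healthy cells, a log2 ratio of -4.65 (-7.75 to -2.69). Dusp10, a phosphatase of p38 and JNK, had 5 UMIs against 36, a log2 ratio of -3.41, and Dusp1 and Dusp5 stood at -1.76 and -1.50. The heat-shock genes Hspa8, Hsp90aa1 and Dnajb1 stood at -0.84, -0.94 and -0.92. Free RNA of the WT tumour library was lower too, with Hspa8 at 1030 against 2258 CPM and Dusp1 at 141 against 389 CPM in WT healthy. Every other gene of both lists was also lower in free RNA of the WT tumour library, so lower values were found outside the activated cells too. The match was not complete. Of the tested genes, Jund and Nfatc1 lay above 0 in the activated cells without the 12, at 0.22 and 1.08. Genes of both lists can be induced while tissue is digested, and the part of sample handling was not tested. Of 11 tested interferon genes 6 were called lower and none higher, among them Gbp2 at -1.92 with 44% of its UMIs in 1 cell. Without the 12, 5 of 11 were called lower and none higher. Cd69 was called lower at -0.68 in the activated cells, and stood at -0.59, not called, without the 12. It was also lower in the other CD4 T cells, at 142 against 339 CPM.

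Cell-cycle genes were lower in the WT tumour cells, and this rested on few cells. Of 12 tested genes 8 were called lower and none higher, against 6.5% of all genes called lower. Without the 12 macrophage-bearing cells, 5 of 9 were called lower. Mki67 had 24 UMIs in 8 WT tumour cells against 49 in 3 WT healthy cells, and 39 of the 49 lay in 1 cell, as did 52 of 61 Top2a UMIs. Without cells that held 2 or more UMIs of the pair, which were 4 and 3 cells, the list stood at a log2 ratio of 0.32 and Top2a at 1.67. Each cell left holds at most 1 UMI of the pair by this choice, so these values follow in part from it and rest on few UMIs. Ly6c2, a surface protein of memory T cells, had 19 UMIs against 97, of which 55 lay in 1 WT healthy cell.

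Among the 8 highest genes outside the lists, Odc1, the first enzyme of polyamine synthesis, had 32 UMIs in 16 WT tumour cells against 2 UMIs in 2 WT healthy cells, a log2 ratio of 3.44. Timp2, an inhibitor of matrix metalloproteinases, had 28 UMIs against 2, a log2 ratio of 3.24. H2-Q6, a nonclassical MHC class I gene, had 50 UMIs in 35 cells against 8 in 7, a log2 ratio of 2.08, but it has near-identical relatives between which the counting may split reads. Ccdc50, Irf2bpl and Mrpl54 stood at 1.97 to 2.02. Sftpc, the surfactant gene of alveolar epithelium, was the highest at 3.85, with a UMI in 78.9% of WT tumour activated cells. It had one in 77.6% of CD8 T cells and 77.4% of the other CD4 T cells of that library, so this share did not part the activated cells from other T cells, and free RNA in the suspension cannot be told apart from expression here. The lowest besides Nr4a3, Dusp10 and Satb1 were Tiparp, an ADP-ribosyltransferase, P2ry10, a receptor for lysophosphatidylserine, Gbp6, an interferon-induced GTPase, Stt3b, a subunit of the oligosaccharyltransferase, and Spty2d1, a histone chaperone. They stood at -2.15 to -1.89.

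**Figure D5:**
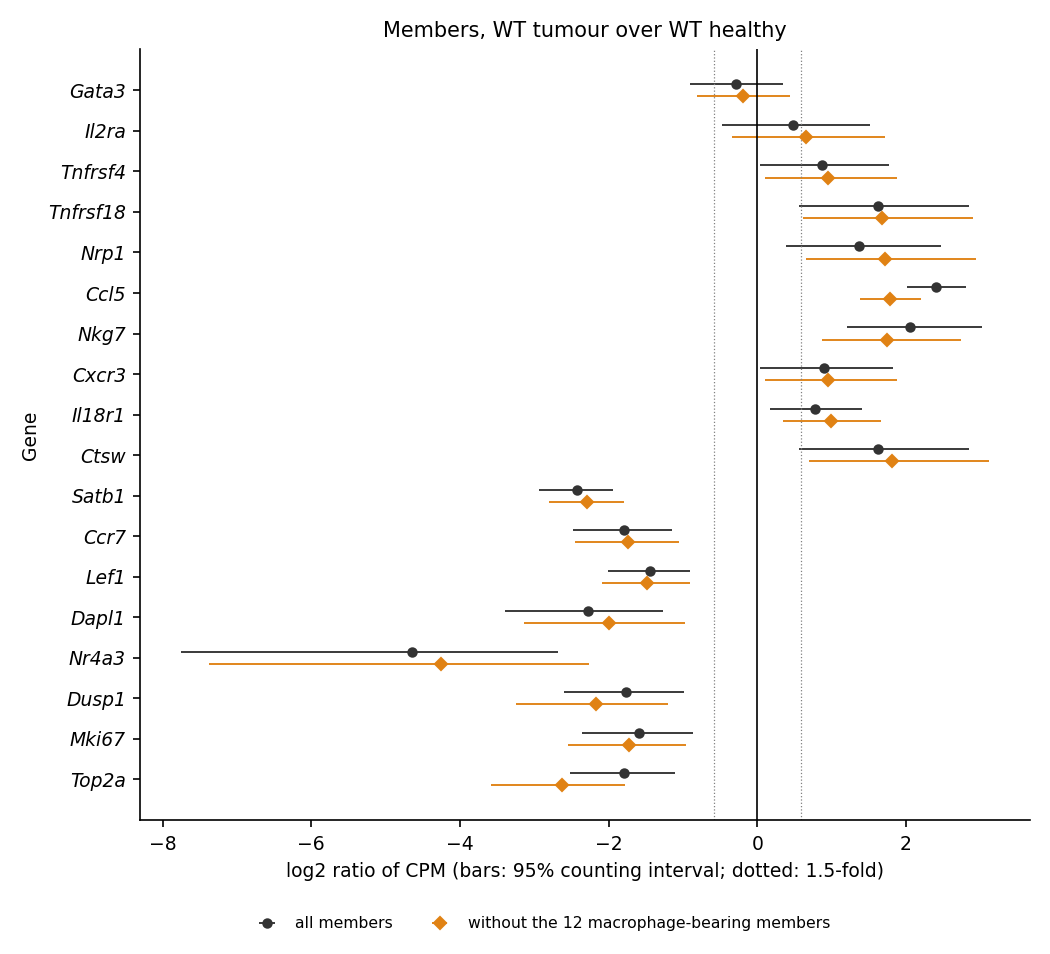
log2 ratio of CPM in activated CD4 T cells, WT tumour over WT healthy (x axis), for 18 genes, with 95% counting intervals. Circles are all activated cells, diamonds leave out the 12 macrophage-bearing cells, and dotted lines mark 1.5-fold. Ccl5, Nkg7 and Ctsw lie right of 0 and Satb1, Ccr7, Lef1 and Nr4a3 left of 0 in both sets.

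Il2ra, Tnfrsf4 and Nrp1 can be read across all 3 libraries, with the reminder that both ratios share the WT tumour cells. Xist and Y-linked genes part the WT healthy library from both tumour libraries. Beside healthy lungs, sex therefore cannot be told apart from tumour or genotype. Il2ra stood at 7.41, 87.4 and 62.4 CPM in the activated cells of the PPARg-/- tumour, WT tumour and WT healthy libraries, so the PPARg-/- tumour value was also the lowest beside healthy lungs. Tnfrsf4 stood at 25.9, 139 and 75.7 CPM and Gata3 at 70.4, 154 and 187 CPM, in which the PPARg-/- tumour cells were again the lowest. Nrp1 stood at 40.8, 127 and 49.0 CPM, with the PPARg-/- tumour and WT healthy values close together. Of the 14 WT healthy Il2ra UMIs, 8 lay in 1 cell and 4 in another, and 12 of the 42 WT healthy Gata3 UMIs lay in 1 cell. These values include the 12 macrophage-bearing cells. Without them Il2ra stood at 10.8, 105 and 66.9 CPM, Tnfrsf4 at 32.5, 159 and 82.3 CPM and Nrp1 at 37.9, 152 and 46.3 CPM.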

How the data were processed

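The authors deposited UMI counts per gene and barcode for 3 libraries, from 10x Genomics 3′ v2 chemistry per the labels' protocols. The submitters' processing notes name Cell Ranger 6.0.1, Seurat 4.0.1 and the mm10 build, while the file headers name Cell Ranger 4, so the version is unsure. The matrices list all 6794880 barcodes unfiltered and hold 44548318, 46148658 and 30454790 UMIs in the PPARg-/- tumour, WT tumour and WT healthy libraries. Gene positions were taken from GENCODE release M21 (GRCm38), matched by gene ID.

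Cells were chosen by the rule given above, and the rule, the lists and the cells were chosen with earlier results of these data known. Doublets were marked with Scrublet in scanpy 1.11.5 and kept. Counts were summed over cells and scaled to CPM. Ratios of CPM carry exact 95% intervals from the conditional binomial distribution, and shares carry Clopper-Pearson intervals. A gene with 0 UMIs in 1 library was set to 3 UMIs to judge its call. Intervals cover counting error only. The calls were also run on simulated counts, drawn with the same counting error that the intervals assume. Such a run cannot check calls whose UMIs lie in few cells. Free RNA was profiled from barcodes with 10 to 100 UMIs. For thinning, shares are the mean over all draws of 1000 UMIs a cell, and gene ratios come from 1 seeded draw. Alternatives changed the mitochondrial limit, doublet removal, the rule-gene sum, Ikzf2 in the rule, the limit on genes of other cell types, scaling, the UMI minimum and the weight of cells. Named genes were the rule and label markers, Pparg and Csf1r, list members that were called or had the most UMIs, and for each comparison the 8 highest and 8 lowest ratios among called genes. These 16 needed at least 30 UMIs, at least 15 cells and at most 20% of UMIs in 1 cell. Rule genes, Xist, Y-linked, mitochondrial, ribosomal, unnamed and antigen receptor segment genes were left out of them. Genes of single-cell counts, Cd44, Itgb1, Rgs1 and the cytokines were added after their values were seen. Some genes of the lists are not reported here.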

Additional observations from a re-analysis of the deposited data

How the results depend on the processing

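No paired analysis was possible because each group has 1 library. Leaving out a replicate was not possible for the same reason. The share of activated cells among Foxp3-negative CD4 T cells kept its order under each alternative run. It was 13.8%, 24.9% and 10.5% in the PPARg-/- tumour, WT tumour and WT healthy libraries with a rule-gene sum of at least 3, and 9.73%, 13.5% and 4.86% after thinning to 1000 UMIs. In PPARg-/- tumour cells beside WT tumour cells, 236 genes were called higher and 288 lower. These counts were 101 and 146 with at most 5% mitochondrial UMIs, 153 and 175 with a rule-gene sum of at least 3, 121 and 137 with at least 50 UMIs a gene and 37 and 30 after thinning. With no UMI minimum 392 were called higher, and without the 12 macrophage-bearing cells, an alternative chosen after seeing the data, 111 and 151. In WT tumour cells beside WT healthy cells, 305 were called higher and 263 lower. These counts were 42 and 34 after thinning and 151 and 141 with at least 50 UMIs, and 201 were called higher with a rule-gene sum of at least 3. Without cells with Icos alone, also chosen after seeing the data, 196 were called higher. Thinning and higher minimums leave fewer UMIs by construction, and the cause of the other shifts was not tested. Of 1438 values of single genes under alternatives, 1284 stayed within the counting interval of the reported value, 139 left it, and 15 values of called genes changed sign. In the first comparison, thinning gave Fos 0.27, Jun 0.0522, Nr4a1 0.0522, Tmem176a 1.12 and Txnl1 -1.46 on the log2 scale. Nr4a1 was 0.21 and Pparg -1.42 without the 12, Nr4a1 was 0.0403 with cells weighted equally, Nkg7 was -0.0225 in cells without Ikzf2, and the checkpoint and costimulatory list was 0.0942 with at most 5% mitochondrial UMIs. Without cells holding 2 or more Mki67 and Top2a UMIs, chosen after seeing the data, Mki67 was -0.35 and the proliferation list -0.41. In the second comparison, thinning gave Dnajb1 0.14, Mrpl54 -0.42, Top2a 0.32 and the proliferation list 0.18. Without the cells with Mki67 and Top2a, Mki67 was 0.0821, Top2a 1.67, the proliferation list 0.32 and the Th17 list -0.0769. In both comparisons those cells were picked by Mki67 and Top2a. The values of these genes and of the proliferation list, which holds them, follow in part from that choice. Scaling by the median of ratios changed no direction or count past these limits. With 45 to 90 cells a library, genes under 20 UMIs could not be compared.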

Other observations

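Metabolic genes of the activated CD4 T cells were close to level between libraries. Of 16 tested genes of oxidative phosphorylation, 1 was called higher and none lower in PPARg-/- tumour cells beside WT tumour cells, near the 5.44% called higher of all genes. None was called in either direction in WT tumour cells beside WT healthy cells, against 14% of all genes. The list medians were 0.09 and 0.07 on the log2 scale, and the summed UMIs stood at 4562, 4413 and 4191 CPM in the PPARg-/- tumour, WT tumour and WT healthy libraries. Glycolysis was similar, at 2424, 2113 and 2022 CPM. Of its 11 tested genes, Tpi1, triosephosphate isomerase, was called lower in PPARg-/- tumour cells (13 against 32 UMIs, a log2 ratio of -1.001), and no gene was called in the second comparison.

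Cytokine and cytokine receptor genes leaned lower in the PPARg-/- tumour cells. Of 8 tested cytokine genes 4 were called lower and none higher beside WT tumour cells, against 6.64% of all genes called lower, among them Tnf, an inflammatory cytokine (5 against 20 UMIs), and Ltb, lymphotoxin beta (102 against 209 UMIs). None of the 4 was called without the 12 macrophage-bearing cells, where 4.5% of all genes were called lower, but the log2 ratios moved less. Tnf stood at -1.70 over all cells and -1.42 without the 12, Ltb at -0.74 and -0.48, and the summed list at -0.71 and -0.47 (-0.74 to -0.22). Of 14 tested cytokine receptor genes 4 were called lower and none higher, and Il2ra and Il18r1 were still called without the 12. Among 13 tested interferon genes none was called in that comparison. Without the 12, Isg15, a ubiquitin-like interferon-induced protein, was called higher with 14 against 8 UMIs, 10 of 11 tested genes lay above 0, and the summed list stood at 0.36 (0.20 to 0.53).

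Some counts lay in single cells. The 23 Il17f UMIs of the WT tumour library came from 2 cells. Il10 came from 2 PPARg-/- tumour cells with 3 UMIs each. Of the follicular helper genes, Bcl6, their transcription factor, was found in 5, 6 and 1 cells and Cxcr5, their homing receptor, in 2, 1 and 0 cells of the PPARg-/- tumour, WT tumour and WT healthy libraries. None of the 6 tested genes of that list was called in the first comparison, against 12.1% of all genes.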
